A study of Mus musculus with 5 samples.

Results

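Long stretches of unmethylated DNA were described in 5 enhanced reduced representation bisulfite sequencing (ERRBS) libraries of mouse bone marrow LSK cells, the Lin- Sca1+ cKit+ cells among which blood stem cells and early progenitors are found. The members are 38 runs of neighbouring CpGs, out of 9651 unmethylated runs of 20 or more CpGs in the same libraries. A run was a chain of consecutive CpGs covered by at least 10 reads in every library, each with a mean methylation under 10% over the 3 wild-type libraries, with neighbours at most 1000 bp apart. Runs of at least 20 CpGs that spanned at least 3500 bp were kept, on the autosomes without chromosome 6 beyond 100 Mb. Wild-type methylation therefore chose the members, and their low wild-type level, their length and their number of CpGs are given as a description.

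The libraries fall into 2 targeted and 3 wild-type libraries, all from mice of the C57BL/6 strain. The titles of the targeted libraries name a knockout and their genotype label marks a heterozygote (+/-), so the number of targeted alleles is not stated here, and the gene itself is not reported. The design text speaks of a germ-line knockout and gives 12 months for the animals of the transcriptome, with no age for the ERRBS libraries. Whether the replicates are separate animals is not stated, so p-values measure a spread between libraries that may be technical. Values are given in the order targeted library 1, targeted library 2, then wild-type library 1, 2 and 3. These libraries hold DNA only, so the cell type could not be checked against marker RNA.

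Most CpGs of mammalian DNA are methylated, and CpG islands at promoters are the main exception. In blood stem cells some unmethylated stretches run on for several kilobases and are known as methylation canyons, often around genes of transcription factors and developmental signals. The DNA methyltransferase Dnmt3a and the Tet enzymes, which oxidise methylated cytosine, are known to act at their borders. The ERRBS assay cuts DNA at CCGG and reads the ends of short fragments, so it samples islands of CpGs and leaves the DNA between CCGG clusters unread. An unmethylated run is thus a chain of measured patches, and a canyon in the sense of a fully read stretch was not measured.

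The 250 bases before the transcription start of 5 genes are given as examples of promoter sequence in the runs. They were chosen as the promoters in the longest run with a named promoter at its upstream-most start (Bahcc1), in 2 of the long runs that were not found again in the targeted mean (Wnt11 and Barhl2), and in 2 runs of blood-related regulators (Gata3 and Foxo3). The letters are RefSeq's for GRCm38.p6, printed 5′ to 3′ on the gene's strand, with every CpG measured in all 5 libraries in capitals. Their mm9 positions come from the match of CpG spacing alone.
Bahcc1: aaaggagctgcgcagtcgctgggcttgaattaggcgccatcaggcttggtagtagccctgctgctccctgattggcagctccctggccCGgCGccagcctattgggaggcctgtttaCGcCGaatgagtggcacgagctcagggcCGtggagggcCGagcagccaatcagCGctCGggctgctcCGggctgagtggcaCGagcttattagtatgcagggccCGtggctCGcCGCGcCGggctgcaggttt
Wnt11: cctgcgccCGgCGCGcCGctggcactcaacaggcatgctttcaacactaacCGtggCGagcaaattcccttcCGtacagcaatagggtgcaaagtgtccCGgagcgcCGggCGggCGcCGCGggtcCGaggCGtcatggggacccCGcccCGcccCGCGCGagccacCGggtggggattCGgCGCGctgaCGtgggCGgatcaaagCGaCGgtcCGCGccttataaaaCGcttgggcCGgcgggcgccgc
Barhl2: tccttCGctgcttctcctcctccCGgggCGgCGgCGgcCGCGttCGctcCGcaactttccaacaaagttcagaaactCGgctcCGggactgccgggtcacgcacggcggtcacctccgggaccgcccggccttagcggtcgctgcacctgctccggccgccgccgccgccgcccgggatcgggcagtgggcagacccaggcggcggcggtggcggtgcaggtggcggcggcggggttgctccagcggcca
Gata3: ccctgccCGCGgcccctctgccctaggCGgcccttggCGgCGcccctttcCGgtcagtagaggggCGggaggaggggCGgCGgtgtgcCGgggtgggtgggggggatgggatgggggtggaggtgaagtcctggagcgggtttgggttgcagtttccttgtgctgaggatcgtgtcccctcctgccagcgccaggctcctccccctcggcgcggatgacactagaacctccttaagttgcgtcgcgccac
Foxo3: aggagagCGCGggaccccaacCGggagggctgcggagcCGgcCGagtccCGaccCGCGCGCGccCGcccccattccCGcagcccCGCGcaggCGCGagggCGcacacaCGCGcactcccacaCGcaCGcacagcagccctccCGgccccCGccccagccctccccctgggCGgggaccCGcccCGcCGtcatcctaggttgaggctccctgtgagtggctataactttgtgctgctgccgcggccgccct

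In mm9 these stretches lie at chr11:120094011-120094260 (plus strand, Bahcc1), chr7:105983372-105983621 (plus strand, Wnt11), chr5:106887186-106887435 (minus strand, Barhl2), chr2:9800228-9800477 (minus strand, Gata3) and chr10:41996502-41996751 (minus strand, Foxo3). The Wnt11 stretch holds 37 CpGs and 5 CCGG sites, and 32 of its CpGs were measured. The Barhl2 stretch holds 36 CpGs and 7 CCGG sites, yet only 11 CpGs, all in its upstream part, were measured in every library. The Foxo3 stretch holds 31 CpGs, of which 27 were measured, and the Gata3 stretch 19, of which 10 were measured. Among the 31396 autosomal promoter entries of the table, 47.8% hold a CCGG in the same 250 bases, and the median entry holds 6 CpGs.

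These promoters were close to free of methylated reads in both groups. Counts below are summed over the measured CpGs of a stretch, so 1 read can enter at each CpG it covers. At Foxo3 the methylated counts were 0 of 1986 and 0 of 3504 in the targeted libraries, against 0 of 2869, 6 of 2910 and 1 of 2964 in wild type. At Gata3 they were 0 of 1618 and 3 of 2076, against 0 of 2172, 6 of 2260 and 1 of 1497. The Wnt11 promoter was methylated at 0.219% and 0.320% in the targeted libraries, against 0.540%, 0.245% and 0.297% in wild type. The Barhl2 promoter stood higher, at 0.640% and 0.818% against 0.545%, 0.842% and 1.10%. At Bahcc1 targeted library 1 had 0.655% (12 of 1832 counts) and the other 4 libraries had 0.0426% to 0.162%. At Wnt11, Barhl2, Gata3 and Foxo3 the groups overlapped, and at Bahcc1 targeted library 1 alone was high.

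The 38 runs held 5271 CpGs, 0.520% of the 1013621 CpGs analysed, and covered 153712 bp from their first to their last CpG. They lay on 14 chromosomes, with 6 on chromosome 5, 6 on chromosome 11, 5 on chromosome 8 and 4 on chromosome 10. Their span had a median of 3752 bp and reached 6180 bp, and they held 44 to 293 CpGs (median 128). The 9613 shorter runs had a median span of 736 bp and a median of 45 CpGs. The long runs were the sparser ones, with a median of 3.30 measured CpGs per 100 bp against 6.82 in the shorter runs. Stretches of more than 100 bp without a measured CpG made up 60.0% of their bases, and 31 of the 38 held such a stretch of over 500 bp. At the span limit, the run just inside was that of Ptma at chr1:88421642-88425142 (3501 bp, 198 CpGs, 0.177% in wild type). The run just outside, chr9:98855258-98858737, spanned 3480 bp with 175 CpGs at 1.45%.

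**Figure D1:**
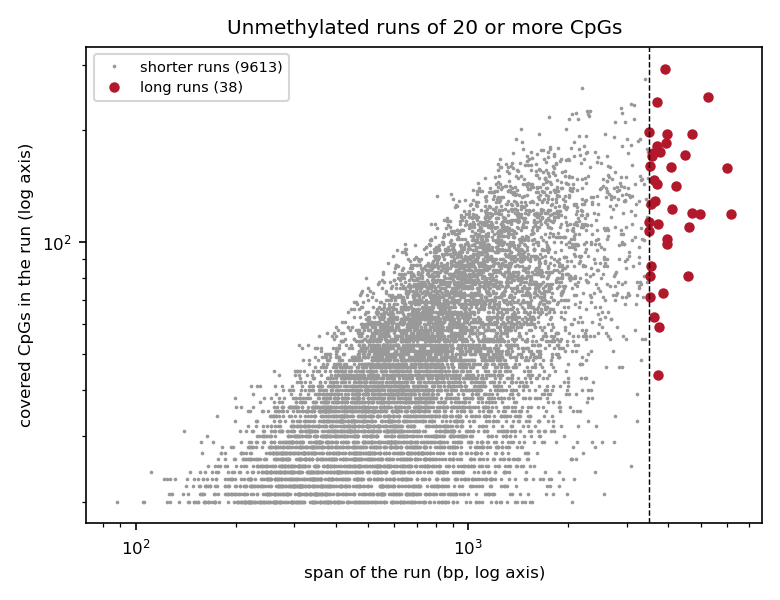
Number of measured CpGs against span (bp, both axes logarithmic) for every unmethylated run of 20 or more CpGs. Grey points are the 9613 shorter runs and red points the 38 long runs, which lie beyond the dashed line at 3500 bp and hold 44 to 293 CpGs.

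Promoters could be placed in 22 of the 38 runs, by matching the spacing of measured CpGs to RefSeq promoter sequences. They belong to 30 genes, 21 of them protein-coding, and the other 16 runs are given by coordinates. Of the runs, 44.7% held a promoter placed on the whole chromosome, against 50.7% of the shorter runs. Transcription factor genes were Sall1, Barhl2, Gata3, Foxo3, Egr2, Zfp423, Zbtb7a, Tgif1 and the nuclear receptor gene Nr3c2. Signalling genes were Wnt11, a secreted Wnt ligand, and Pdgfa, a platelet-derived growth factor. Genes of chromatin and nuclear proteins were Bahcc1, Hmga1, Smarca2, Ubtf, Ptma and Anp32a. Cdk6 encodes a kinase of the early cell cycle that is active in blood progenitors. Gse1, Tmc6 and Gm20346 completed the protein-coding genes.

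The gene lists chosen for this tissue gave few members. Of 302 genes in families of developmental regulators, such as Hox, Pax, Sox, Fox, Gata and Wnt, 88 had a placed promoter, 3 of these (Foxo3, Gata3 and Wnt11, 3.41%) lay in long runs and 76 in shorter runs. Among all 5580 protein-coding genes with a placed promoter, 21 lay in long runs (0.376%). The shares are not quite like for like. Tmc6, Tgif1, Anp32a and Gm20346, among these 21, were placed only by a looser rule used inside long runs alone. Foxo3, Gata3 and Wnt11 were placed on the whole chromosome. Sall1, Barhl2 and Egr2 are not in the listed families. Of 26 blood stem cell regulators 7 had a placed promoter and of 6 methylation enzymes 5 had; none of these 12 promoters lay in a long run, and all lay in shorter runs. A gene without a placed promoter, which is most of each of the first 2 lists, can lie in either kind of run.

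The longest run, chr14:58689451-58695630, spanned 6180 bp with 119 CpGs and held no placed promoter. Its methylation was 0.417% and 0.282% in the targeted libraries, against 0.326%, 0.275% and 0.185% in wild type. Targeted library 1 was the highest, and targeted library 2 lay among the wild-type libraries.

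The second longest, chr8:91565181-91571179, spanned 5999 bp with 158 CpGs and held both placed starts of Sall1, which encodes a zinc-finger transcription factor of kidney and limb development. It was methylated at 1.65% and 1.49% in the targeted libraries, against 1.30%, 1.31% and 1.43% in wild type. The groups did not overlap, and the targeted mean was higher by 0.223 percentage points. This difference was 0.142 points without targeted library 1, 0.144 points with CpGs weighted by reads and 0.106 points at a coverage minimum of 20.

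The Bahcc1 run, chr11:120094099-120099363, spanned 5265 bp with 246 CpGs. Bahcc1 encodes a chromatin protein with a BAH domain. Its run was at 0.167% and 0.147% against 0.141%, 0.141% and 0.0835%, with both targeted libraries narrowly on top.

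The Wnt11 run, chr7:105983380-105988357, spanned 4978 bp with 119 CpGs and started at the promoter printed above. Methylation was 1.20% and 0.966% in the targeted libraries, against 1.06%, 0.725% and 0.622% in wild type. The wild-type libraries differed more here than in any other long run (SD 0.231 points), and the groups overlapped.

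The Barhl2 run, chr5:106884323-106889035, spanned 4713 bp with 120 CpGs and also held the promoter of the long noncoding RNA Gm33151. Barhl2 encodes a homeobox factor of neurons. Its run was at 2.13% and 1.99% against 1.70%, 1.94% and 1.96%, so the targeted libraries were higher by a narrow margin.

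Of the other 5 among the 10 longest, 2 held placed coding promoters. The Gse1 run, chr8:123059592-123064298 (4707 bp, 196 CpGs), was at 0.146% and 0.167% against 0.221%, 0.138% and 0.128%. The Zbtb7a run, chr10:80597116-80601599 (4484 bp, 172 CpGs), around the gene of a zinc-finger repressor that acts in blood lineage choice, was at 0.190% and 0.158% against 0.159%, 0.126% and 0.139%. In both the groups overlapped.

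The remaining 3 had no placed promoter. At chr19:45303688-45308312 (4625 bp, 110 CpGs) methylation was 2.42% and 2.20% in the targeted libraries, against 1.93%, 1.96% and 2.0% in wild type, the highest level of all long runs in every library. At chr5:120118883-120123468 (4586 bp, 81 CpGs) it was 1.88% and 1.82% against 1.37%, 1.60% and 1.69%. At chr8:87500071-87504273 (4203 bp, 142 CpGs) it was 0.190% and 0.205% against 0.173%, 0.301% and 0.202%. The first and second of these kept the groups apart, with the targeted libraries higher, and the third did not.

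Among the 10 runs with most CpGs were also those of Bahcc1, Gse1 and Ptma given above. The Ptma run was at 0.155% and 0.325% in the targeted libraries, against 0.130%, 0.143% and 0.258% in wild type, and the groups overlapped. The run at chr15:96115334-96119234 held 293 CpGs in 3901 bp and stood at 0.0994% and 0.0737% in the targeted libraries, against 0.0805%, 0.0909% and 0.0557% in wild type. The run of Ubtf, the gene of an RNA polymerase I transcription factor, held 238 CpGs in 3683 bp (chr11:102178110-102181792) and was at 0.0969% and 0.114% against 0.117%, 0.0903% and 0.0843%. The Foxo3 run, chr10:41994721-41998415 (181 CpGs), was at 0.383% and 0.128% against 0.149%, 0.268% and 0.194%. Foxo3 encodes a forkhead factor that maintains blood stem cells. In the runs of Ubtf and Foxo3 and in chr15:96115334-96119234 the groups overlapped too.

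The Pdgfa run, chr5:139468813-139472738 (185 CpGs), was at 0.667% and 0.675% against 0.533%, 0.594% and 0.557%. The Hmga1 run, chr17:27691269-27694865 (174 CpGs), around the gene of an AT-hook chromatin protein, was at 0.127% and 0.105% against 0.165%, 0.125% and 0.114%. The run at chr9:61218466-61222228 (175 CpGs), which held the promoter of the long noncoding RNA Gm34157, was at 0.164% and 0.175% against 0.194%, 0.133% and 0.194%. Of these 3, the Pdgfa run kept the groups apart. The run at chr18:75526327-75530278 (195 CpGs) did so too, at 0.163% and 0.138% against 0.0758%, 0.0784% and 0.0864%.

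Runs kept their order across the libraries. Wild-type levels went from 0.0653% in the Anp32a run to 1.96% in the run on chromosome 19 at 45303688, with 18 runs under 0.2% and 4 above 1% (that run and the runs of Barhl2, chr5:120118883-120123468 and Sall1). Spearman's rho of the 38 levels was 0.837 to 0.903 over the 10 pairs of libraries, across runs that share each library. Sparser runs had higher levels (rho of CpG density and wild-type level -0.403 over 38 runs), while span went with the level less closely (rho 0.211). Both are descriptions of chosen runs, which share the same libraries.

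**Figure D2:**
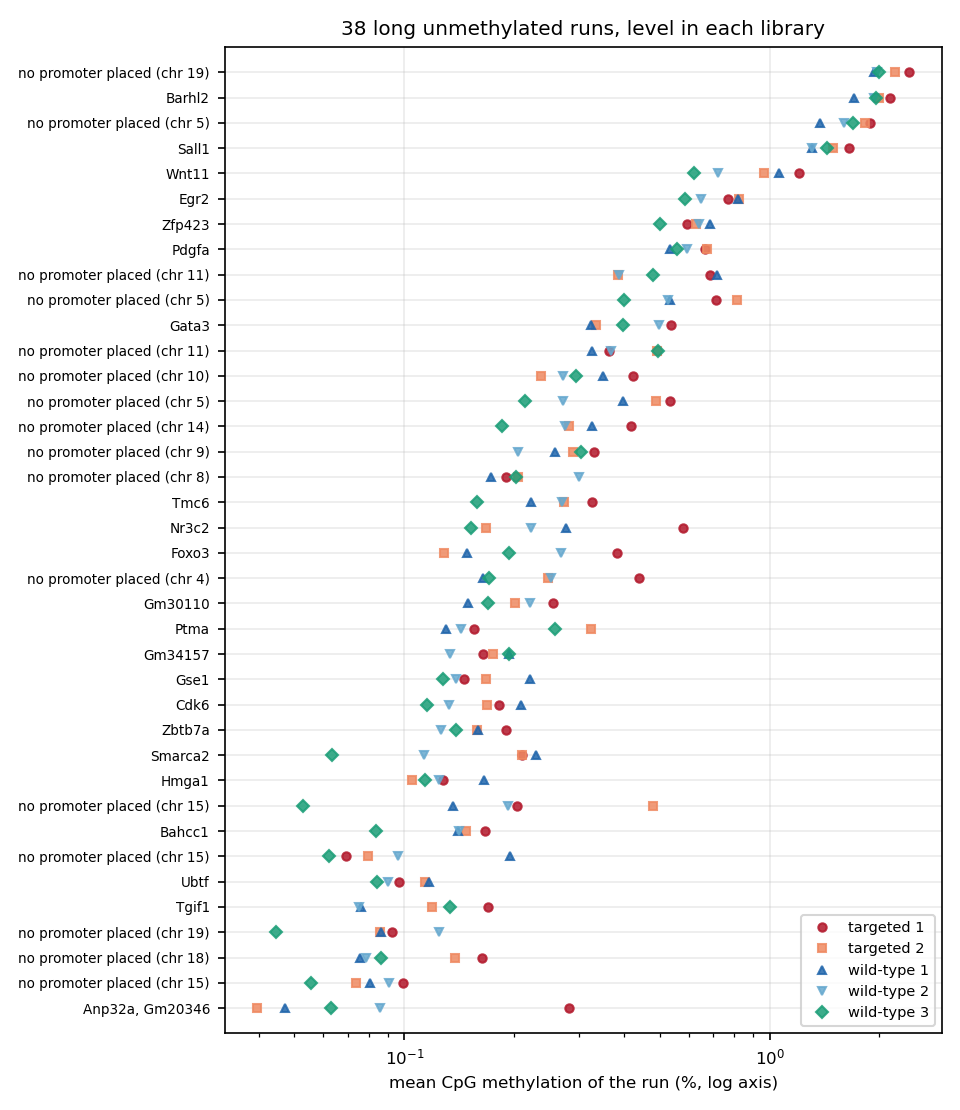
Mean CpG methylation (%, logarithmic axis) of each of the 38 long runs in each library, ordered by wild-type mean; red and orange are the targeted and the other colours the wild-type libraries. Names are the placed protein-coding genes or, failing these, a noncoding gene; 4 runs stand above 1% and 18 under 0.2% in wild type.

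CpGs with a wild-type mean of 5% or more were few and lay in a minority of the runs. No library had a methylated read at 2566 of the 5271 CpGs (48.7%), against 47.3% of CpGs in shorter runs. A wild-type mean of 5% or more was found at 55 CpGs (1.04%, against 1.32% in shorter runs), in 17 runs. The 4 runs with most such CpGs held 34 of the 55, with 13 in chr19:45303688-45308312, 11 in the Barhl2 run and 6 in chr5:120118883-120123468. The Wnt11 and Sall1 runs held 4 each. Within 5 CpGs of an edge lay 38.2% of the 55 and 7.21% of all CpGs of the runs; this is a description, since wild-type methylation set the edges.

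The main comparison asked whether unmethylated runs differed between targeted and wild-type libraries. Averaged over the 38 runs, methylation was 0.526% and 0.467% in the targeted libraries, against 0.422%, 0.412% and 0.390% in wild type. The groups did not overlap. The group means were 0.497% ± 0.0423 (SD, n = 2) and 0.408% ± 0.0160 (SD, n = 3), a difference of 0.0886 percentage points, and the two-sided exact permutation test gave p = 0.1, the smallest p that the 10 splits of 5 libraries allow. Because wild-type values chose the runs, a difference upward was favoured. Runs chosen on the mean of all 5 libraries gave 0.0887 points.

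Targeted library 1 carried more of the difference. The difference fell to 0.0587 points when it was left out, and rose to 0.119 points when targeted library 2 was. Targeted library 1 had 37 CpGs of the runs at 10% or more, against 12 in its partner and 8 to 11 in wild type. Its reads were also spread otherwise. The median coverage of a CpG in the runs was 89 reads, 1.0 times its median over all CpGs analysed, whereas the other 4 libraries had 119 to 145 reads, 1.14 to 1.28 times their median. The part of coverage in the result was not tested. Pooling all reads of the runs gave 0.427% (95% Wilson interval 0.410 to 0.444) and 0.377% (0.364 to 0.390) in the targeted libraries. In the wild-type libraries it gave 0.350% (0.338 to 0.364), 0.346% (0.334 to 0.359) and 0.354% (0.340 to 0.368). The intervals cover counting error only and take counts at neighbouring CpGs of a read as separate.

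The difference in shift between long and shorter runs varied in sign and size with the settings. With 5 libraries the test could not decide whether there was one. Shorter runs were at 0.610% and 0.523% in the targeted libraries, against 0.501%, 0.484% and 0.465% in wild type, a difference of 0.0831 points. Long minus shorter runs gave -0.0837 and -0.0559 points in the targeted and -0.0788, -0.0721 and -0.0748 points in the wild-type libraries. The difference between these was 0.00546 points (two-sided exact permutation test over libraries, p = 0.8). It was 0.0253 points for runs chosen on the mean of all 5 libraries and 0.0321 points for spans of at least 5000 bp, each with an exact permutation p of 0.1, the smallest possible. It was negative under 4 other alternatives and without targeted library 2 (-0.00843 points).

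**Figure D3:**
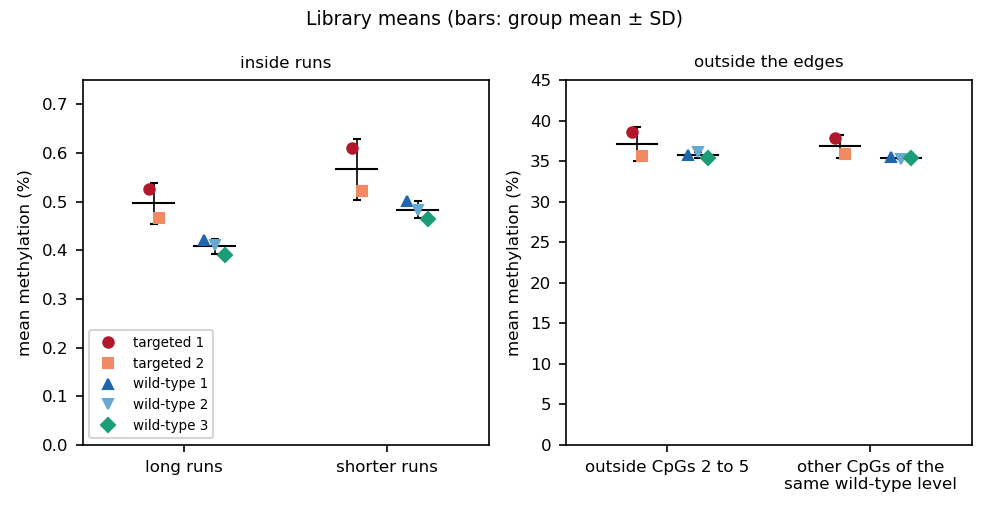
Mean methylation (%) of each library in the long and the shorter unmethylated runs (left) and at CpGs 2 to 5 outside the edges of long runs with other CpGs of the same wild-type level (right). Symbols are libraries and bars the group mean ± SD; inside runs both targeted libraries lie above the wild-type libraries, and at the outside CpGs targeted library 2 lies among them.

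Run by run, 33 of the 38 were higher in the targeted mean and 5 lower, or 86.8% higher, against 64.2% of all 9651 runs. In 11 of the 38 (28.9%) both targeted values lay above every wild-type value, which held for 17.7% of all runs, and in 0 both lay below, which held for 5.27% of all runs. The 11 were the runs of Barhl2, Pdgfa, Sall1, Tmc6 and Bahcc1 and those that start at 52504313, 58107217 and 120118883 on chromosome 5, 61814875 on chromosome 15, 75526327 on chromosome 18 and 45303688 on chromosome 19. The differences of the 38 runs went from -0.0433 to 0.344 points (median 0.0532), and the median over shorter runs was 0.0312 points. The selection by wild-type values bears on all of these counts. All runs share the same 5 libraries, and the long runs hold more CpGs (median 128, against 45 in shorter runs). The part of this in the shares was not tested. Leaving out targeted library 1 reversed the sign of 9 of the 38 differences, and leaving out any other library reversed 2 to 4. Weighting by reads reversed 6, and a coverage minimum of 20 reversed 4.

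No single run passed the test. With edgeR's quasi-likelihood test and Benjamini-Hochberg adjustment, 0 of the 38 long runs were called, where 2 of all 9651 runs, 0.0207%, were called. An unadjusted p under 0.05 was reached by 1 long run and by 5.94% of all runs. limma also called 0 (1 with an unadjusted p under 0.05), and a chi-square test of pooled reads, which holds no spread between libraries, called 5, all higher. The run with the smallest edgeR p was chr15:61814875-61818615, of 3741 bp and 59 CpGs, at 0.204% and 0.480% against 0.136%, 0.192% and 0.0526% (adjusted p = 0.788). Targeted library 2 was the high one there.

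No single CpG of the runs passed either. Of the 5271 CpGs, 2705 had a methylated and an unmethylated read in some library and could be tested. edgeR's quasi-likelihood test called 0 at a difference of at least 10 points, where 0.00215% of all 745551 tested CpGs were called. These are not like for like, since the rule kept every wild-type mean of the runs under 10%. A fall of 10 points was thus impossible, and only 9 CpGs reached 10% in the targeted mean. Without the limit of 10 points edgeR also called 0, as its smallest adjusted p was 0.876. The unadjusted edgeR p was under 0.05 at 52 (1.92%, against 2.99% of all tested CpGs). With the limit of 10 points, limma called 0 and the chi-square test of pooled reads 1. Without it, limma gave an unadjusted p under 0.05 at 88 CpGs.

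When the same rule was applied to the targeted mean, 36 runs were found, and 34 of the 38 long runs were overlapped by such a run over more than 50% of their span, 31 of them completely. The other 4 were broken by CpGs that reached 10% in the targeted mean, since a single such CpG ends a run. In all, 9 CpGs of the long runs reached 10% there, and 6 of them lay in these 4 runs. With 2 libraries in the targeted mean and 3 in the wild-type mean, and with wild-type values choosing the runs, breaks were favoured.

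The clearest was in chr5:52504313-52507834 (3522 bp, 160 CpGs), at 52507800, CpG 7 from its high edge. It read 7 of 47 and 10 of 69 methylated in the targeted libraries (14.9% and 14.5%), and 3 of 81, 1 of 89 and 0 of 109 in the wild-type libraries (3.70%, 1.12% and 0%, where a count of 0 allows up to 2.75%). The groups were well apart there, but the CpG was picked by its wild-type and targeted means, which favoured such a gap. The edgeR p of 4.1e-04, subject to the same choice, did not survive adjustment over all CpGs (adjusted p = 0.876). Every other CpG of this run stayed under 10% in the targeted mean, but the longer piece fell just short of 3500 bp. The whole run was at 0.714% and 0.816% against 0.532%, 0.527% and 0.400%.

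In the Barhl2 run the break was at 106886183, with 12.0% and 11.3% in the targeted libraries, against 2.78%, 8.18% and 13.5% in wild type; wild-type library 3 was the highest of all. The Wnt11 run had breaks at 105985435 (9.62% and 11.8% against 6.15%, 10.4% and 3.6%) and at its last CpG, 105988356. There the levels were 22.7% and 9.09% against 8.54%, 9.17% and 5.36%, and targeted library 1 alone was high. The Sall1 run had a break at 91566306 that rested on 3 of 10 reads in targeted library 1, with 0 of 11 in targeted library 2. Its other break, at 91568809, had 3 of 34 and 3 of 25 reads against 1 of 18, 0 of 25 and 0 of 43. Coverage was low at both: the 95% Wilson interval was 10.8% to 60.3% for 3 of 10 reads and 3.05% to 23.0% for 3 of 34.

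**Figure D4:**
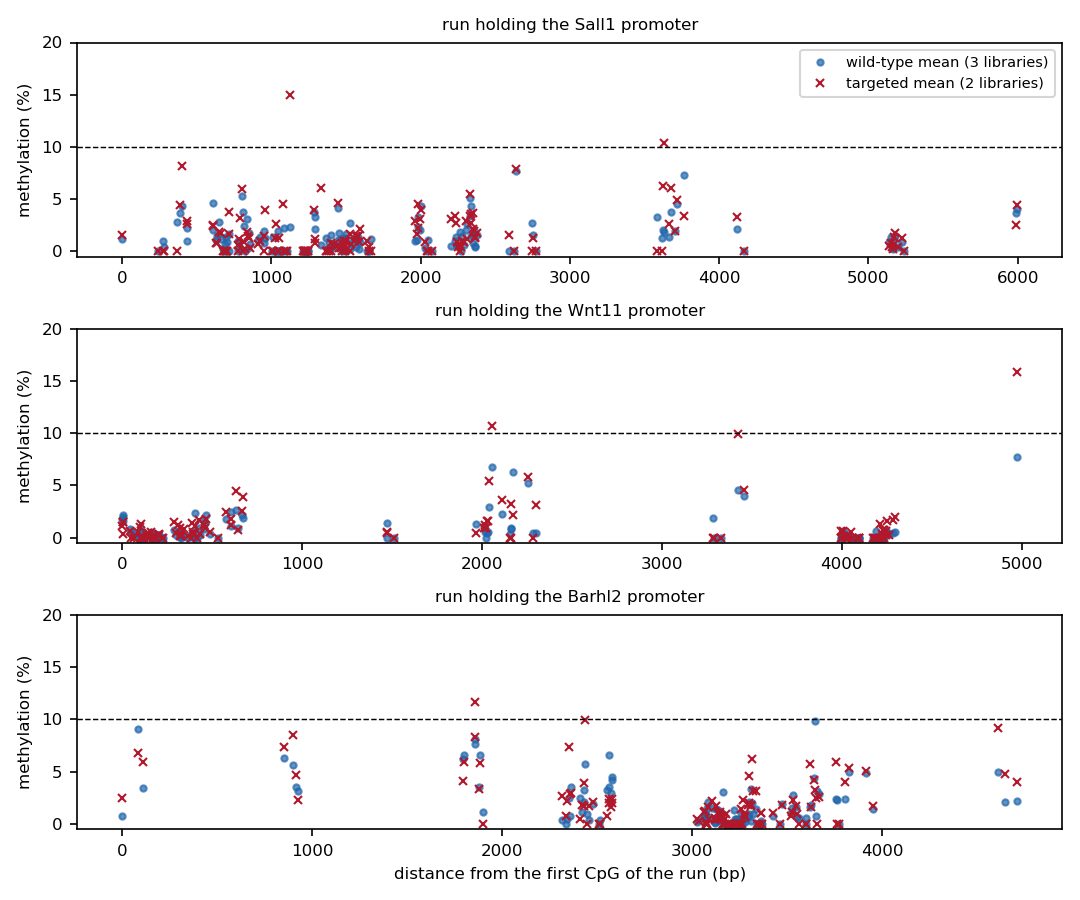
Methylation (%) of each CpG along the Sall1, Wnt11 and Barhl2 runs against its distance (bp) from the first CpG, as wild-type mean (blue points) and targeted mean (red crosses). The dashed line marks 10%; measured CpGs lie in patches with empty stretches between them, and a few red crosses stand above the line.

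The edges of the runs were set more often by missing data than by methylation. Of the 76 edges, 50 ended because the next measured CpG was over 1000 bp away and 26 at a measured CpG of 10% or more. Both edges of 17 runs were such gaps, and both edges of 5 runs were CpGs. Beyond a gap the first measured CpG was at 80% or more at 31 edges, under 10% at 11 and between at 8, at distances of 1005 to 184020 bp. The extent of the unmethylated stretch is thus not known at these edges. Among the 26 CpGs that ended runs, wild-type levels went from 10.2% to 97.7% with a median of 15.1%, and 14 were under 20%. At 11 of the 26 the next CpG outward was under 10% again.

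The Barhl2 run is an example of an open edge. Beyond a gap of 1159 bp on its low side the next 5 CpGs had wild-type means of 0% to 6.38%, and beyond 4809 bp on its high side the next 5 were at 0.674% to 6.82%. Next to the Bahcc1 run, the 5 CpGs from 1161 bp on its low side were at 0% to 0.192%. The Sall1 run ended on each side at a CpG barely over 10% (12.4% and 12.6%, each 21 bp away), and on the low side the next 4 CpGs were back at 1.62% to 4.31%.

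Other edges differed, and of those below only the high edge of the Wnt11 run had a steep rise measured over close CpGs. Beyond the high edge of the Wnt11 run the wild-type level rose from 22.0% at 43 bp to 59.0% at 50 bp and 86.8% at 180 bp. Library by library the CpG at 50 bp was at 65.4% and 71.7% in the targeted libraries, against 66.2%, 63.2% and 47.7% in wild type. Beyond the high edge of the Zbtb7a run the first CpG, at 484 bp, was at 86.3% and 78.2% against 78.8%, 82.3% and 76.9%, and wild-type levels then fell to 27.9% at the fifth CpG, at 1160 bp. The run on chromosome 18 met a CpG at 97.7% in wild type 863 bp before its first CpG. Beyond the low edge of the Gata3 run, chr2:9798246-9802102, a CpG at 14 bp had 29.3% and 20.9% against 12.3%, 20% and 11.6%. Its wild-type mean was 14.6%, and the next measured CpG, at 66.3% in wild type, lay 1882 bp from the edge. Gata3 encodes a factor of T cells and innate lymphoid cells, and its run was at 0.537% and 0.335% against 0.324%, 0.499% and 0.398%.

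Inside the runs methylation was higher near the edge. The outermost CpG had 2.46% and 1.65% in the targeted libraries, against 1.56%, 2.0% and 1.27% in wild type, averaged over 76 edges. The fifth CpG from the edge had 0.856% and 0.747% against 0.803%, 0.582% and 0.540%, and CpGs farther in had 0.393% and 0.366% against 0.334%, 0.312% and 0.303%. The second CpG had 1.51% and 1.45% against 0.996%, 1.14% and 1.09%. Counted inward from the edge, CpG 3 had 1.32% and 0.930% in the targeted libraries, against 0.830%, 1.15% and 0.804% in wild type. CpG 4 had 0.932% and 0.775% against 0.609%, 0.702% and 0.895%. The groups overlapped at the outermost CpG and at CpGs 3, 4 and 5. They did not overlap at CpG 2 or farther in than CpG 5. Wild-type methylation set the edges and chose these CpGs, so a difference upward was favoured here too.

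Outside, the first CpG was used by the rule where it ended a run, so the comparison of groups was made on CpGs 2 to 5 within 5000 bp of an edge. There were 161 of these at 49 edges, with 71 under 10%, 49 from 10 to 80% and 41 at 80% or more in wild type. Their mean methylation was 38.6% and 35.6% in the targeted libraries, against 35.8%, 36.1% and 35.4% in wild type. Targeted library 1 was high and targeted library 2 lay among the wild-type libraries. The difference of 1.36 points (two-sided exact permutation test, p = 0.3) became -0.114 points without targeted library 1 and 2.83 points without targeted library 2. Weighting CpGs by their reads gave 4.30 points (p = 0.5 by the same exact test), and gaps of at most 500 bp gave 2.71 points (p = 0.2).

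A difference from CpGs of the same wild-type level elsewhere was not detected. Set against other CpGs in the same bin of 5 points of wild-type mean, the outside CpGs were at 0.751 and -0.209 points in the targeted and at 0.250, 0.769 and -0.0136 points in the wild-type libraries. The difference between the groups was -0.0643 points (two-sided exact permutation test, p = 0.9), and the libraries of the groups overlapped. At the matched CpGs, which lie outside the long runs and their edges, targeted library 1 was at 37.8%, targeted library 2 at 35.8% and wild type at 35.3% to 35.5%.

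**Figure D5:**
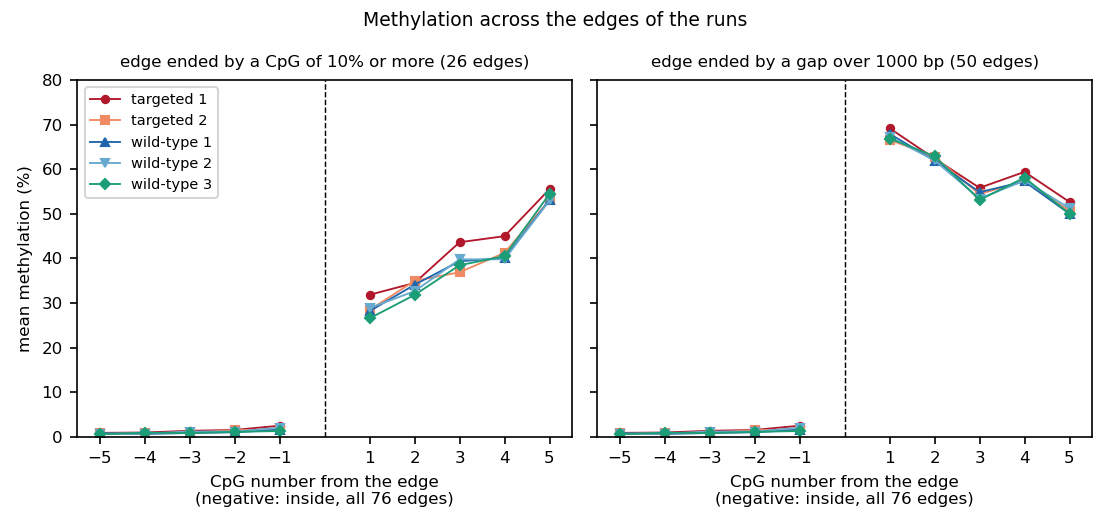
Mean methylation (%) by CpG number from the edge in each library: the 5 CpGs inside (negative numbers, all 76 edges) and the first 5 outside, for 26 edges ended by a CpG (left) and 50 ended by a gap (right). Inside values stay under 2.5%; outside, the CpG-ended edges stand at 26.6% to 31.8% at the first CpG, while the gap-ended edges start between 66.6% and 69.2%.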

How the data were processed

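Genomic DNA of sorted LSK cells was digested with MspI, and short fragments were bisulfite-converted and sequenced as 50 bp single-end reads, per the labels' protocols. The submitters' processing notes name Bismark, with no version, and the build mm9 (NCBIM37). The deposited tables hold, per the file headers, coverage counts for each CpG cytosine by strand, not normalized, and the percent of reads with C and with T. Their lowest coverage was 10 and they hold 1354420 to 1473602 strand entries per library, with total coverage of 122015958 to 151634492.

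Strands were merged, and methylated counts were recovered by rounding the percent times the coverage. The 38 members, the gene lists and the tests were chosen with earlier results of these data known. Levels are means over CpGs of a run and then over runs. Exact permutation tests served for single values (two-sided, 10 arrangements, smallest p 0.1). The mean chi-square per run was 3.62 to 4.58 in pairs of libraries with targeted library 1 and 2.49 to 2.93 in the other pairs. As 1 read can enter at several CpGs, this cannot settle whether a pair agreed within sampling noise. Runs and CpGs were tested with edgeR 4.0.16 (quasi-likelihood, factor for each library, common dispersion, R 4.3.3) on methylated and unmethylated counts over all 9651 runs and 745551 CpGs, with Benjamini-Hochberg adjustment at 0.05. The code was checked on simulated data.

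No mm9 annotation was used. RefSeq promoter sequences (GRCm38.p6, 300 bases) were placed where all measured CpGs of a window fell on promoter CpGs, at least 8 of them at a single place on the chromosome. Of 31396 entries 7133 were placed, 99.8% of them in the order of their neighbours. Among entries with at least 8 CpGs, placed or not, 42 patterns matched a single place on the next autosome, where they do not belong. Inside members, 5 CpGs and a single place between neighbouring placements were enough. Tmc6, Tgif1, Anp32a, Gm20346, Gm34157 and Gm30110 rest on this looser rule alone, and its error was not estimated.

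Runs named are the 10 longest, the 10 with most CpGs, those broken in the targeted libraries and those at the span limit; the other named runs illustrate lists, edges or tests and were chosen after their values were seen. Alternatives were a coverage minimum of 20, no highest 0.1% of coverage, limits of 5%, 500 bp and 5000 bp, runs chosen on all libraries, read weighting, each library left out, a replicate block, limma 3.58.1 and a chi-square test. A span between cytosines was added after the data were seen.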

Additional observations from a re-analysis of the deposited data

How the results depend on the processing

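The number of long runs was 7 with gaps of at most 500 bp and 3 with spans of at least 5000 bp, where the stricter limits act directly, and 26 to 40 under the other alternatives. The higher level inside the runs kept its direction under all 13 alternatives, which draw on the same libraries. It was 0.0588 points with a wild-type mean under 5% (exact permutation p = 0.2). Weighting by reads gave 0.0517 points (exact permutation p = 0.1), and leaving out a library gave 0.0587 to 0.119 points. The level of outside CpGs 2 to 5 was 4.30 points weighted by reads, 2.71 points with gaps of at most 500 bp and 0.843 points with a wild-type mean under 5%. It turned to -0.558 points with spans of at least 5000 bp, and leaving out a library gave -0.114 to 2.83 points. Set against matched CpGs, it turned to 0.492 points at a coverage minimum of 20 and 0.457 points with gaps of at most 500 bp, and was -1.75 points with spans of at least 5000 bp and -0.774 points weighted by reads; leaving out a library gave -0.544 to 0.415 points. Long minus shorter runs gave 0.0253 points for runs chosen on all 5 libraries and 0.0321 points for spans of at least 5000 bp (exact permutation p = 0.1 in each). It turned to -0.000942 (coverage minimum of 20), -0.00154 (wild-type mean under 5%), -0.00212 (gaps of at most 500 bp) and -0.0110 points (weighted by reads), and leaving out a library gave -0.00843 to 0.0194 points; the causes were not tested. The chi-square test of pooled reads, which ignores the spread between libraries, called 5 runs and 1 CpG, and every other alternative called 0 of each. For CpGs this adds little, since a limit of at least 10 points always held and few CpGs could reach it. The limits of 5%, 500 bp and 5000 bp and the runs chosen on all libraries also reused the CpG p-values of the main fit. Runs found again in the targeted mean were 18 of 26 with a wild-type mean under 5%, 6 of 7 with gaps of at most 500 bp and 2 of 3 with spans of at least 5000 bp.

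With the replicate number as a block, pairing libraries 1 and 2 of each group, the differences were 0.0799 points inside, 1.18 points outside, -0.239 points against matched CpGs and 0.00569 points against shorter runs, with 0 runs and 0 CpGs called. Deviations of same-numbered libraries correlated at -0.00180 and -0.0822. With 2 targeted libraries these deviations mirror each other, so the correlations cannot decide whether same-numbered libraries share more than a number. At a median coverage of 89 to 145 reads in the runs, 1 read moves a single CpG by more than the difference between the groups.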
